A study of Mus musculus with 6 samples.

Results

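The receptor subunits described here are the pore-forming and ligand-binding chains of the GABA-A, GABA-B, glycine, kainate and NMDA receptors, together with Grid1 of the delta family. They were chosen by gene name, from the array probes that measure a gene and carry the name of such a subunit. Earlier results of these data were known at that time, and some subunits are not reported here. Described are 36 genes with 56 probes, out of 24082 gene names and 55681 probes on the array. RNA was measured on 6 one-color Agilent arrays, 3 of ACSA-2 positive and GLAST positive cells (A+/G+) and 3 of ACSA-2 negative and GLAST positive cells (A-/G+), which were isolated from the cerebellum of wild-type mice with magnetic beads, with 50000 cells in each sample. The labels give the strain as CD1 and the age as postnatal day 1 to 3, whereas the methods of the study name another background strain and an earlier age. ACSA-2 is an epitope on the Na/K-ATPase subunit Atp1b2, and GLAST is the glutamate transporter Slc1a3. A+/G+ cells were taken in a single step with anti-ACSA-2 beads, without removal of neurons. A-/G+ cells were first depleted of cells that carry L1CAM, ACSA-2, CD45, PSA-NCAM or Ter119 and were then selected by GLAST. Cerebella of either sex were pooled before the isolation, so that a sample is not a single animal.

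GABA-A and glycine receptors are pentameric chloride channels assembled from several subunit families. GABA-B receptors act through G proteins and need both of their chains, where Gabbr1 binds GABA and Gabbr2 couples to the G protein and brings the dimer to the cell surface. Kainate and NMDA receptors are tetrameric cation channels opened by glutamate, and NMDA receptors also need glycine or D-serine on Grin1 or Grin3 chains. In the cerebellum these receptors are best known from neurons, but Bergmann glia and other astroglia also carry GABA receptors and some glutamate receptor chains.

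Probes of 60 bases behind the main differences are shown by their first 30 bases from the 5′ end, since genes with several probes were measured at separate places and did not always give the same result. Letters A, B and C name the probes of a gene for Gabbr1, Gabbr2 and Grik1, where A is the brightest and the others follow from the 3′ end of the transcript.
Gabbr1 probe A: tacaatcatctctcaaaactactgcatctt
Gabbr1 probe B: aagagaagtcccgactgttggagaaggaaa
Gabbr1 probe C: gatgtctccattctgccccagctggagcac
Gabbr2 probe B: catccatcagaagagagatgtttgttactc
Gabrb2: cttgtagcctttctgaacacacacatcatg
Gabrg1: cttgctcattgttaaaggtgttagggagtt
Grik1 probe A: ttccttatattagcaaaatgtacagacatt
Grik1 probe B: gctcacatagatattacttgaggagtgaaa
Grik4: gccgagagagcagtccaagaattgatggtg
Grin2d: tcttggagcccaccgactcttttttaaacc
In the array's annotation on mm9, Gabbr1 probes A, B and C lie on the plus strand of chromosome 17, starting at positions 37210986, 37209174 and 37206959. Gabbr2 probe B lies on the minus strand of chromosome 4, at 46677030 to 46677089. The annotation does not say which probes lie in a coding exon or a UTR.

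All signals below are quantile-normalized log2 intensities, a scale on which a step of 1 is a doubling, and differences are A+/G+ minus A-/G+. The A-/G+ arrays were dimmer before normalization, with a 75th percentile of the intensity of 55.9, 112 and 250 for replicates 1, 2 and 3 against 329 to 332 on the A+/G+ arrays. After normalization the lowest signal that the scanner software marked as well above background, here called detected, was 3.52 to 3.61 on the A+/G+ arrays but 5.72, 4.95 and 4.03 on the A-/G+ arrays, so that a dim probe has only an upper limit in A-/G+. Slide 1 held the A+/G+ arrays and slide 2 the A-/G+ arrays, so that a slide effect and a fraction effect cannot be told apart. The median difference over all probes was -0.04 and became -1.02 when each array was instead shifted by its 75th percentile. Over probes detected on all 6 arrays it was -0.116 and became -0.165. Changes under that scaling are read against the value for probes of like detection. A gene is represented by its probe with the highest mean signal, and the numbers of genes within the p limit use that probe alone. To be called, a probe needed an adjusted p of at most 0.05 from limma and fraction medians separated by 4-fold or more.

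Both GABA-B receptor genes were higher in A+/G+. Of the 56 probes, 5 were called higher in A+/G+, 3 of Gabbr1 and 2 of Gabbr2, which is 8.93% compared with 1.53% of all probes. None of the 56 was called higher in A-/G+, where the share over all probes was 0.399%, and with limma 2 of them, of Grik4 and Glrb, had an unadjusted p below 0.05 in that direction. Counted by representative probe, with no size limit, 6 of 36 genes were higher in A+/G+ at an adjusted p of at most 0.05 (16.7%, compared with 7.48% of all gene names), and 1 was higher in A-/G+ (2.78%, compared with 5.12%). Those 6 genes are Gabbr1, Gabbr2, Gabrb2, Gabrg1, Grik1 and Grin2d, and the gene higher in A-/G+ is Grik4. The other 29 genes were not within the limit. In such sorted bulk samples, fewer cells of a type and less RNA per cell cannot be told apart.

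**Figure D1:**
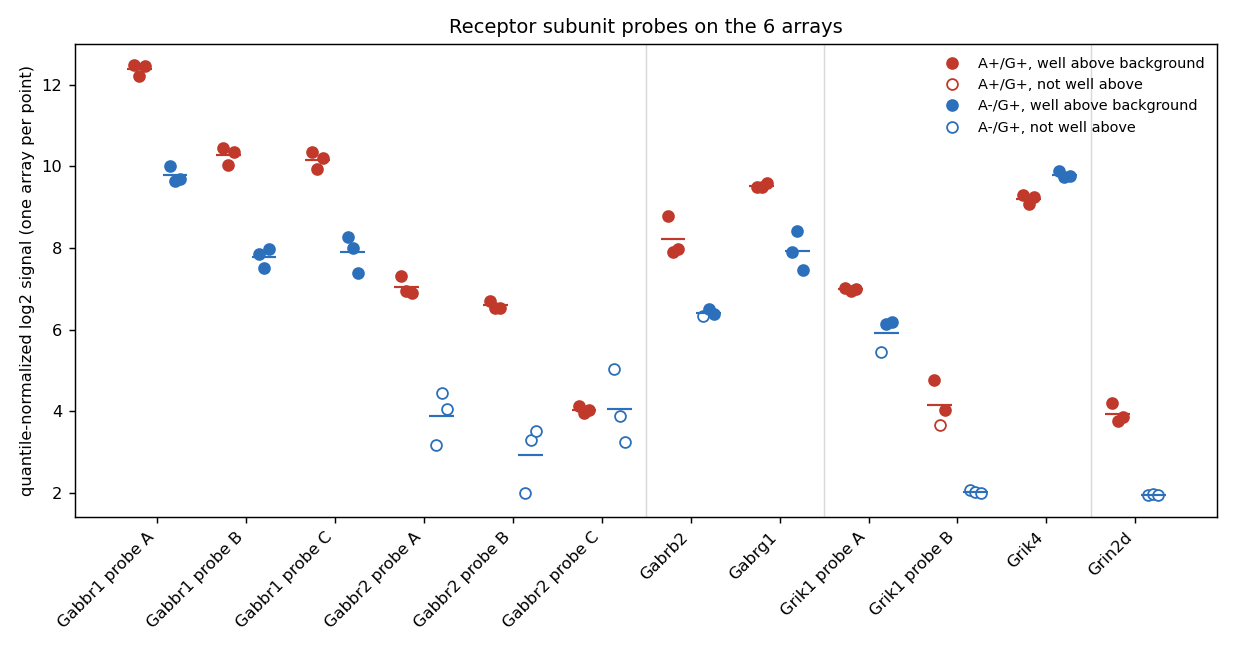
Quantile-normalized log2 signal of 12 receptor subunit probes on each of the 6 arrays, with A+/G+ in red and A-/G+ in blue, filled points for arrays that detected the probe, open points for those that did not, and a line at the mean of each fraction. All 3 Gabbr1 probes were filled in both fractions and higher in A+/G+, whereas Gabbr2 probe C did not separate the fractions.

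Gabbr1, the GABA-binding chain, was detected on all 6 arrays by each of its 3 probes. Probe A gave 12.47, 12.21 and 12.46 in A+/G+ and 10.004, 9.65 and 9.68 in A-/G+. The fractions did not overlap, and the 3 arrays of each lay within a narrow range. The fractions had means of 12.38 ± 0.15 and 9.78 ± 0.20 (SD, n = 3 each), a difference of 2.60 (SE 0.14, adjusted p = 0.00354), with medians 6.85-fold apart. Probe B, with 10.44, 10.03 and 10.35 against 7.86, 7.51 and 7.96, gave a difference of 2.49 (SE 0.17, adjusted p = 0.0051). Probe C, with 10.36, 9.93 and 10.20 against 8.27, 8.01 and 7.38, gave 2.27 (SE 0.27, adjusted p = 0.0141). The probes therefore gave differences from 2.27 to 2.60 at separate places of the transcript. Probes A and B stayed called without each of the 6 arrays in turn, and probe C lost its call when any A+/G+ array was left out (adjusted p between 0.0572 and 0.0719). With 3 arrays against 3, an exact permutation test over the arrays cannot give a two-sided p below 0.1, which is the value for every probe whose fractions do not overlap.

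Gabbr2, the G protein-coupling chain, was detected on every A+/G+ array by each of its 3 probes and on no A-/G+ array by any. Probe A gave 7.31, 6.95 and 6.90 in A+/G+ and 3.16, 4.45 and 4.05 in A-/G+. The measured means of 7.05 ± 0.22 and 3.89 ± 0.66 (SD, n = 3 each) differed by 3.17 (SE 0.36, adjusted p = 0.0135). Against the detection limits of the A-/G+ arrays the A+/G+ signal was 4.42-fold higher. For each array the limit is its lowest detected signal, or the signal of the probe itself if larger. Some undetected signals lay above the lowest detected one, such as Gabrb2 on A-/G+ replicate 1 (6.34 against 5.72). Folds against these limits are therefore approximate. Probe B gave 6.70, 6.53 and 6.54 against 1.99, 3.31 and 3.52, a difference of the measured means of 3.65 (SE 0.43, adjusted p = 0.0147). Against the limits, A+/G+ was 3.22-fold higher on this probe. Probe C gave 4.12, 3.96 and 4.04 against 5.03, 3.89 and 3.25, with a difference of -0.02 (95% interval -1.23 to 1.19, adjusted p = 0.984). It was dim in both fractions, and the A-/G+ values were too close to background to show whether it differs from probes A and B. The calls of probes A and B were lost when any A+/G+ array was left out, with an adjusted p of 0.0606 to 0.0659 for probe A and 0.0665 to 0.072 for probe B. Normexp background correction, which adds an offset and so compresses dim signals, gave 1.25 for probe A (adjusted p = 0.00114).

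Among the 16 genes of the GABA-A receptor described, 2 were higher in A+/G+ and none was higher in A-/G+ at the limit, nor at an unadjusted p below 0.05 with limma. The median difference of the class was -0.006, compared with 0.23 over the 36 receptor genes and -0.03 over all gene names, and the differences ran from -1.22 for Gabrp to 1.82 for Gabrb2. The genes that rose were a beta and a gamma chain, Gabrb2 and Gabrg1.

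Gabrg1 encodes a gamma chain known from astroglia, including Bergmann glia. Its main probe, on the minus strand of chromosome 5 at 71143181 to 71143240 and present in 10 spots per array, gave 9.48, 9.49 and 9.59 in A+/G+ and 7.89, 8.41 and 7.45 in A-/G+. Every array detected it, and the A+/G+ arrays were far closer to each other than the A-/G+ arrays (SD 0.06 and 0.48, n = 3). The difference was 1.60 (SE 0.25, adjusted p = 0.0279), with medians 3.03-fold apart. A dimmer probe of the gene gave 1.36 in the same direction (95% interval -0.03 to 2.76, adjusted p = 0.225). The adjusted p of the main probe rose above the limit when any A+/G+ array was left out, or A-/G+ replicate 1 (0.0744 to 0.113), with the methods' t-test (0.0667) and with the mean of both probes (0.0656).

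Gabrb2 encodes a beta chain of the most common adult GABA-A receptor. It gave 8.79, 7.91 and 7.96 in A+/G+ and 6.34, 6.50 and 6.37 in A-/G+, where A-/G+ replicate 1 did not detect it. The difference was 1.82 (SE 0.27, adjusted p = 0.0229), with the A+/G+ replicate 1 standing highest. Without A+/G+ replicate 2 or 3, or A-/G+ replicate 1 or 2, the adjusted p was 0.0639 to 0.0755, and with the methods' t-test it was 0.0584.

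The other GABA-A genes fell into groups by their detection. Gabra2, Gabra3, Gabrb1, Gabrg3 and Gabrr2 were, like Gabrg1, detected on all 6 arrays, with differences of -0.15, 0.41, -0.23, 0.74 and -0.02 that were not within the limit. The alpha chain Gabra2, known from Bergmann glia, gave 6.37, 5.997 and 6.28 in A+/G+ and 6.57, 5.96 and 6.57 in A-/G+, with overlapping fractions and a 95% interval of the difference from -0.70 to 0.40. The beta chain Gabrb1 gave 9.74, 9.41 and 9.69 against 10.29, 9.94 and 9.30, with an interval from -0.95 to 0.49. Gabra4 was detected on 5 arrays with a difference of 0.01, while the delta chain Gabrd and the rho chain Gabrr1 were detected on 2 A+/G+ arrays each, with differences of 0.21 and 1.5 that were not within the limit (adjusted p = 0.843 and 0.31).

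Gabrg3 shows how a choice of probe matters, since its main probe was not within the limit (0.74, adjusted p = 0.114) but another was. That probe, at transcript position 1613, gave 3.80, 3.60 and 3.88 in A+/G+, where 2 arrays detected it, and 2.02, 2.05 and 2.00 in A-/G+, where none did. The difference of 1.74 (SE 0.09, adjusted p = 0.0035) rests on undetected A-/G+ signals, and no fold can be given because the A+/G+ signal lies below the A-/G+ detection limits. Gabra5, Gabra6, Gabre, Gabrp, Gabrq and Gabrr3 were detected on no array. Gabra6, which marks mature granule neurons, gave 2.54, 2.16 and 2.13 in A+/G+ and 4.80, 2.95 and 2.30 in A-/G+, none of them a detected level.

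**Figure D2:**
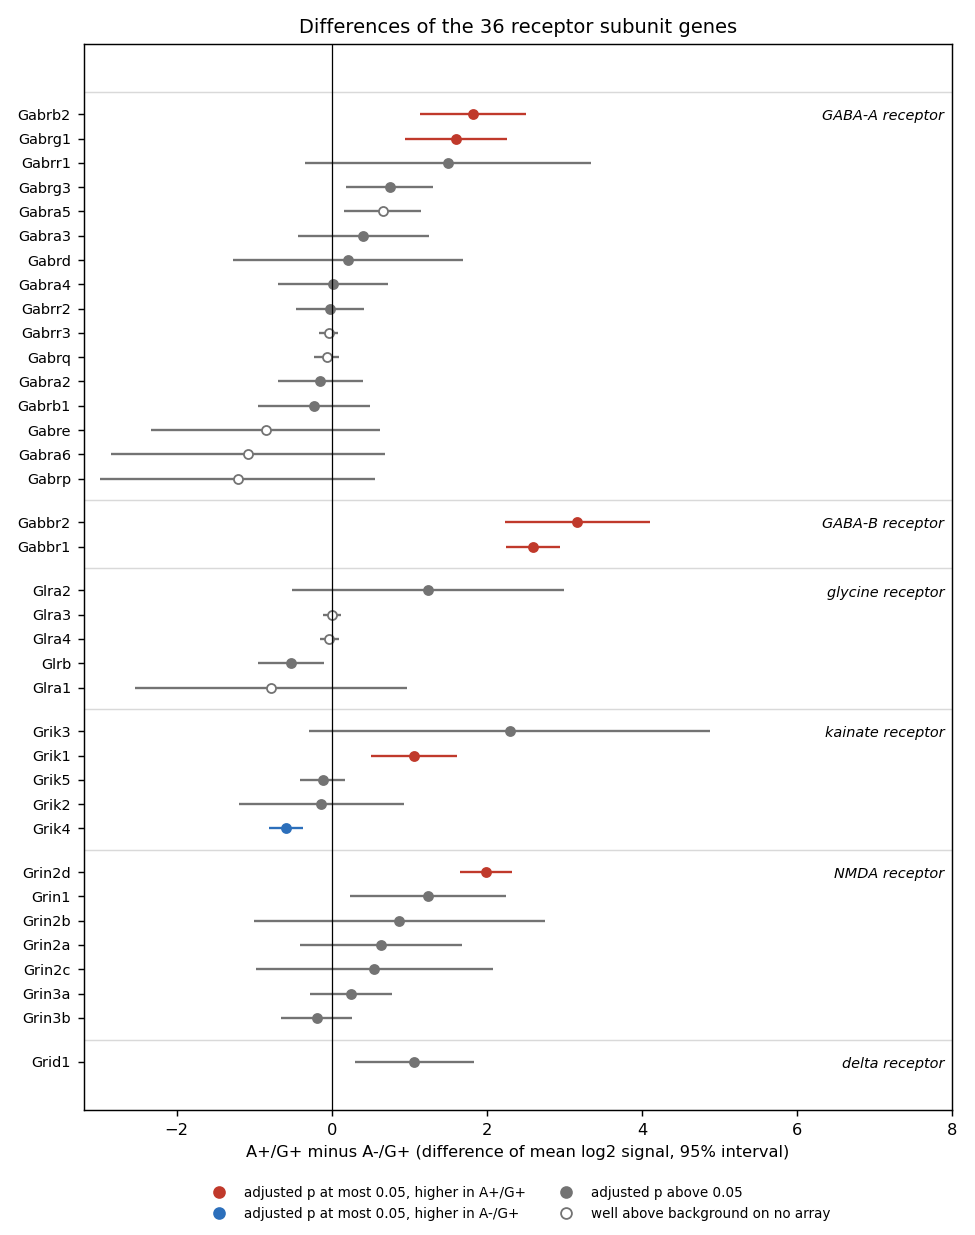
Difference of mean log2 signal, A+/G+ minus A-/G+, for the representative probe of each of the 36 receptor subunit genes, ordered within class, with the 95% interval from limma. Red and blue mark genes at an adjusted p of at most 0.05, and open points mark genes detected on no array. The intervals of both GABA-B genes lie above 2, and Grik4 is the only gene in blue.

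The glycine receptor genes gave no difference within the limit, and 1 of 5, Glrb, had an unadjusted p below 0.05 with limma. Glrb, the beta chain that anchors the receptor to gephyrin, was detected on all 6 arrays, with 7.05, 6.997 and 7.12 in A+/G+ and 7.37, 7.92 and 7.46 in A-/G+. The A-/G+ arrays were all above the A+/G+ arrays, but the difference of -0.53 was not within the limit (95% interval -0.95 to -0.11, adjusted p = 0.131). The alpha chains Glra1, Glra3 and Glra4, which bind glycine, were detected on no array. Glra2, the alpha chain of the immature brain, was detected on 2 A+/G+ arrays and no A-/G+ array, with 5.18, 4.49 and 3.73 against 4.42, 2.96 and 2.30. Its difference of 1.24 had an interval from -0.52 to 2.99. The median of the 5 genes was -0.03.

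Of the 5 kainate receptor genes, Grik1 was higher in A+/G+, Grik4 was higher in A-/G+, and the other 3 were not within the limit. The median difference was -0.12. Grik1, a chain that can form channels on its own, gave 7.01, 6.94 and 6.997 in A+/G+ and 5.46, 6.12 and 6.19 in A-/G+ on probe A. The difference of 1.06 (SE 0.22, adjusted p = 0.0497) lay at the edge of the limit and was lost when any A+/G+ array, or A-/G+ replicate 2, was left out (0.0885 to 0.167). It was also lost with the 75th percentile shift (0.0501), the authors' log2 table (0.0535), outlier spots kept (0.053), the methods' t-test (0.0993) and a trended, robust variance in limma (0.0531). Grik1 probe B gave 4.75, 3.65 and 4.02 against 2.06, 2.03 and 1.99. Its difference of 2.12 (SE 0.29, adjusted p = 0.0205) had the same direction, again with undetected A-/G+ signals.

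Grik4, a chain that needs a partner of the Grik1 to Grik3 group to form a channel, gave 9.30, 9.07 and 9.24 in A+/G+ and 9.88, 9.74 and 9.76 in A-/G+, detected on every array. The fractions did not overlap, and the difference was -0.59 (SE 0.09, adjusted p = 0.0225), so that A-/G+ was 1.43-fold higher by the medians. When any A+/G+ array, or A-/G+ replicate 1 or 2, was left out, the adjusted p was 0.0509 to 0.0908, and scaling by the 75th percentile gave 0.0584. Grik5, the other chain of this kind, had overlapping fractions, with 9.86, 9.72 and 9.82 against 9.97, 9.71 and 10.07 and a difference of -0.12 (95% interval -0.41 to 0.17). All A+/G+ arrays detected Grik2 and Grik3, and so did 1 and 2 A-/G+ arrays, respectively, and Grik2 differed by -0.14. Grik3 gave 8.28, 7.80 and 7.33 against 3.54, 5.75 and 7.25, and its difference of 2.29 was not within the limit (interval -0.29 to 4.88). A-/G+ replicate 3 lay next to the A+/G+ arrays, while replicate 1 lay lowest.

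Of the 7 NMDA receptor genes, Grin2d alone was within the limit, and the median difference was 0.63. Grin2d, a chain typical of the developing brain, gave 4.21, 3.77 and 3.85 in A+/G+ and 1.94, 1.97 and 1.95 in A-/G+. It was detected on all A+/G+ arrays and no A-/G+ array, and its measured means differed by 1.99 (SE 0.13, adjusted p = 0.00452). The A+/G+ mean of 3.94 lay below the detection limit of each A-/G+ array, so that no fold can be stated. It stayed within the limit without each array in turn, but not with a shift by the 75th percentile (0.95, adjusted p = 0.177), and normexp gave 0.41 (adjusted p = 0.00979).

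Grin1, the obligatory chain, gave 6.88, 6.37 and 6.13 in A+/G+ and 4.81, 4.89 and 5.96 in A-/G+, where replicate 3 alone detected it. Its difference of 1.24 was not within the limit (95% interval 0.23 to 2.25, adjusted p = 0.138). Grin2c and Grin3a were detected on all 6 arrays. Grin3a gave 9.15, 9.07 and 9.14 against 8.99, 9.19 and 8.45, with a difference of 0.24 (interval -0.29 to 0.77), and Grin2c gave 7.51, 7.53 and 6.98 against 6.20, 6.12 and 8.05. The Grin2c values of A-/G+ lay on both sides of the A+/G+ values. Grin2b and Grin3b were detected on all A+/G+ arrays but in A-/G+ on replicate 3 alone, and Grin2a on a single A+/G+ array. Grin2a, Grin2b, Grin2c and Grin3b differed by 0.63, 0.87, 0.55 and -0.19, none of them within the limit. Grid1, of the delta family that binds cerebellins and D-serine, gave 6.72, 6.93 and 6.91 against 5.30, 6.39 and 5.68, a difference of 1.07 that was not within the limit (interval 0.30 to 1.83, adjusted p = 0.103).

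Detection is given as a description, with no test. The representative probes of 25, 27 and 24 of the 36 genes were detected on A+/G+ replicates 1, 2 and 3 (69.4%, 75% and 66.7%), and those of 12, 17 and 21 in A-/G+ (33.3%, 47.2% and 58.3%). Over all gene names the share was 63% on each A+/G+ array and 47.7%, 53.1% and 58.8% on the A-/G+ arrays. A-/G+ replicate 3, the brightest of its fraction, detected the receptor genes about as often as all genes. Replicate 1, the dimmest, detected them less often. Replicate 3 was also the highest A-/G+ array in several neuronal markers, described below. The part of brightness and of the cells in each sample was not tested. Gabbr2 and Grin2d were the 2 genes detected by the whole A+/G+ group and by none of the A-/G+ group (5.56%, compared with 3.36% of all gene names), and no gene showed the reverse (0.0208% of all gene names). In 12 genes the probe was detected on all 6 arrays, in 9 on none.

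**Figure D3:**
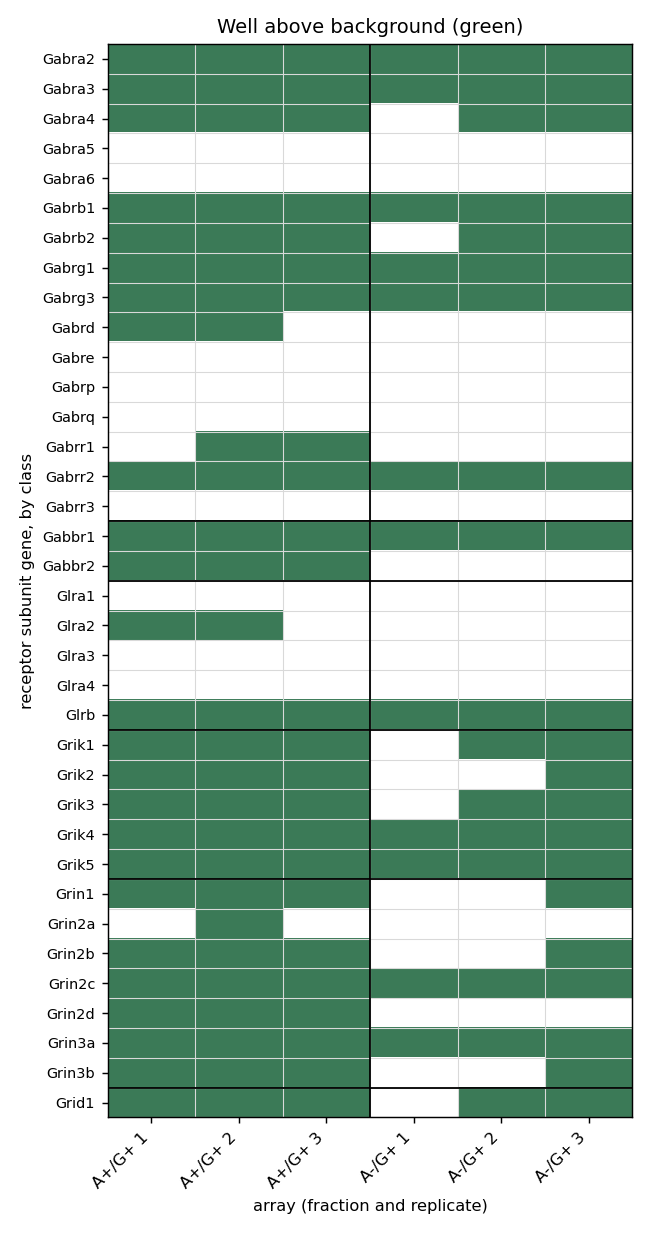
Arrays on which the representative probe of each of the 36 receptor subunit genes was detected, shown in green, with genes in rows by class and the 3 A+/G+ and 3 A-/G+ arrays in columns. The A+/G+ columns hold 25, 27 and 24 green cells and the A-/G+ columns 12, 17 and 21.

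In 11 genes the fractions did not overlap and A+/G+ was higher (30.6%, compared with 19.1% of all gene names), and in 3 genes, Glrb, Grik4 and Gabrr3, they did not overlap and A-/G+ was higher (8.33%, compared with 23.3%). Gabra5, which is among the 11, and Gabrr3 were not detected on any array. Among the 12 genes detected on all arrays the median SD over the 3 arrays was 0.13 in A+/G+ and 0.34 in A-/G+, compared with 0.10 and 0.22 for all gene names detected on all arrays. Of the 16 genes with several probes, the probes of 8 gave differences of 1 sign and those of 8 gave mixed signs.

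Proteins that bind or transport these receptors were described by 42 further genes, of which 5 were higher in A+/G+ (11.9%, compared with 7.48% of all gene names), 6 were higher in A-/G+ (14.3%, compared with 5.12%) and 31 were not within the limit. No list had more than 2 genes within the limit in either direction. Among the auxiliary chains of the GABA-B receptor, Kctd12 was higher in A-/G+ (-1.07, adjusted p = 0.0396), opposite in sign to Gabbr1 and Gabbr2, whereas Kctd8, Kctd12b and Kctd16 were not within the limit. At inhibitory synapses Iqsec3, which binds gephyrin, was higher in A+/G+ and undetected on the A-/G+ arrays. Its measured means differed by 4.12 (adjusted p = 0.00772), and against the A-/G+ detection limits it was 3.86-fold higher. Also higher in A+/G+ was Lhfpl4, a transmembrane partner of GABA-A receptors, by 0.50 (adjusted p = 0.0493). Slitrk3 and the scaffold Magi2 were higher in A-/G+, with differences of -1.23 and -1.999 (adjusted p = 0.0225 and 0.0265). Gephyrin itself (Gphn) differed by 0.16 (95% interval -0.05 to 0.36).

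Of the chloride transporters that set the direction of the current through GABA-A and glycine receptors, the exporter Slc12a5 was higher in A+/G+, with 10.27, 9.06 and 9.18 against 7.18, 6.96 and 7.24 and a difference of 2.38 (adjusted p = 0.0242). The importer Slc12a2 differed by 0.01 (interval -0.29 to 0.31). In receptor trafficking, Gabarapl1 was higher in A+/G+ (0.72, adjusted p = 0.00927), and Hap1 and the palmitoyl transferase Zdhhc3 were higher in A-/G+ (-1.23 and -0.31, adjusted p = 0.0079 and 0.0415). Among glutamate receptor scaffolds and kinases, Camk2a was higher in A+/G+ (adjusted p = 0.0113), with no fold to be stated because it was undetected on the A-/G+ arrays and its A+/G+ mean of 3.69 lay below their detection limits, and Dlg1 was higher in A-/G+ (-0.47, adjusted p = 0.0494). The kainate auxiliary chains Neto1 and Neto2 were not within the limit (3.03 and 0.42, adjusted p = 0.073 and 0.269), nor were the cerebellins Cbln1, Cbln2 and Cbln4. The number of partner genes within the limit moved between 2 without A+/G+ replicate 2 and 21 without A-/G+ replicate 3.

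**Figure D4:**
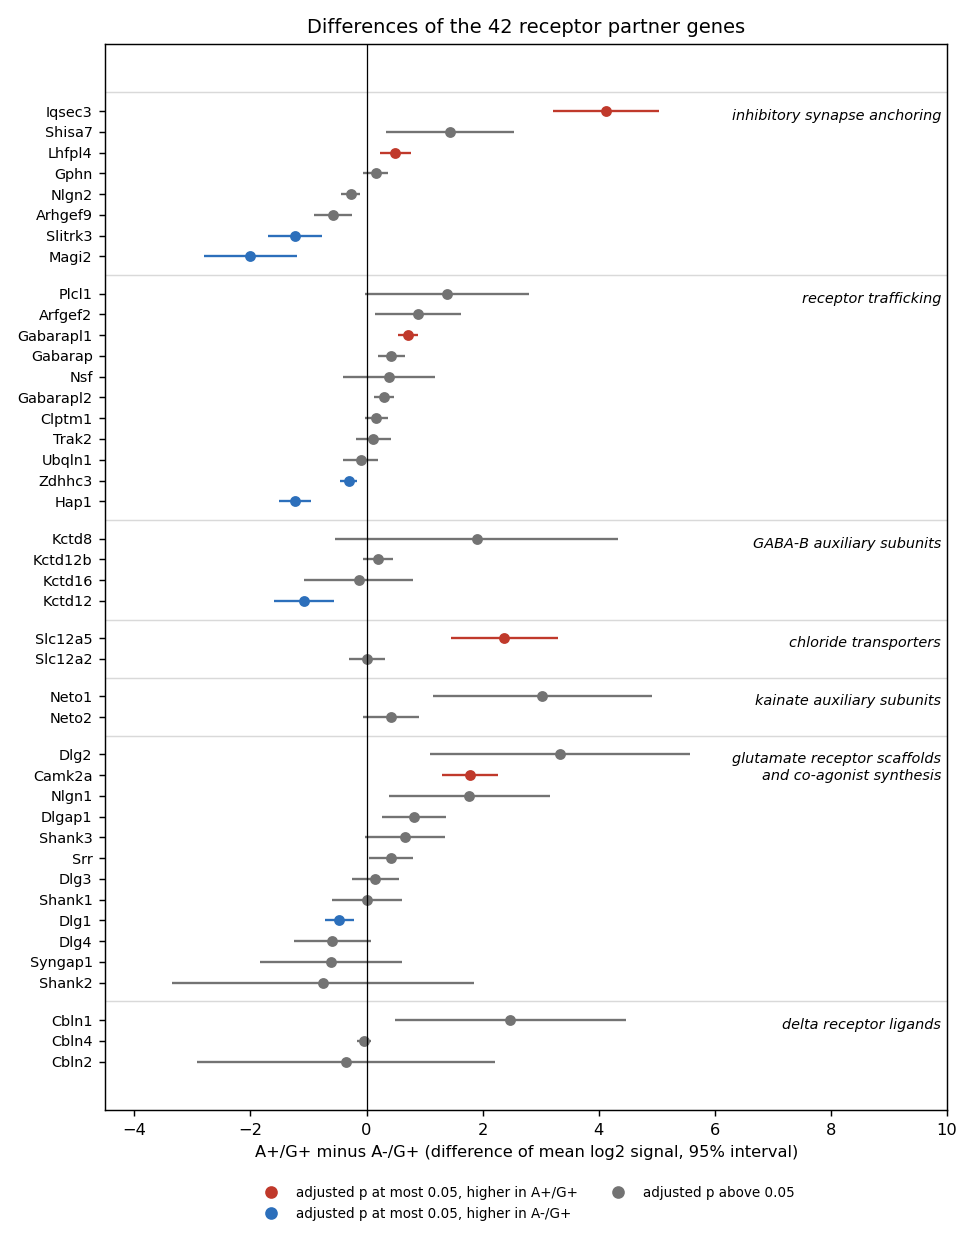
Difference of mean log2 signal, A+/G+ minus A-/G+, with the 95% interval from limma for 42 partner genes of the receptors, by list. Red and blue mark genes at an adjusted p of at most 0.05, 5 genes in red and 6 in blue.

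The fractions also differed in genes of cells that carry many of these receptors. Of 9 Purkinje cell markers, 6 were higher in A+/G+, among them Pcp2 by 4.99, and the other 3 were not within the limit. Calb1 was 23.4-fold and Car8 2.51-fold higher in A+/G+, against the detection limits of the A-/G+ arrays. The log2 of their summed signal was 11.89 to 13.44 on the A+/G+ arrays and 9.30 to 9.64 on the A-/G+ arrays, and Car8, Calb1, Gng13, Skor2 and Foxp2 were detected on no A-/G+ array. Of 8 inhibitory neuron markers, Gad1 (2.69) and Slc32a1 (2.84) were higher in A+/G+ and Tfap2b (-1.65) was higher in A-/G+, with summed signals of 10.61 to 11.37 and 9.64 to 10.13. Gad1 and Slc32a1 do not tell interneurons from Purkinje cells, which are also inhibitory. Pax2 and Slc6a5 of this list were detected on no array. None of 14 pan-neuronal markers was within the limit, and 10 had a higher mean in A+/G+. The 5 with an unadjusted p below 0.05 with limma were Nefl (3.70), Nefm (2.78), L1cam (2.54), Stmn2 (2.18) and Map2 (-0.35). Of the 14, 11 were detected on all arrays. Summed signals of the list were 13.86 to 14.63 and 13.27 to 14.13, and Tubb3 differed by 1.00 (adjusted p = 0.446). Within A-/G+, replicate 3 was above replicates 1 and 2 in Stmn2 (11.18 against 9.35 and 8.97). The same held for Tubb3 (11.47 against 9.59 and 9.41), but not for Map2, Snap25 or Syt1. Of 9 granule lineage markers, 8 had a higher mean in A+/G+, none of them within the limit. Pax6 alone was within the limit, higher in A-/G+. The summed signals were 11.51 to 11.96 and 11.61 to 12.48, with Pax6 the brightest of the list on each A-/G+ array.

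Oligodendrocyte precursor markers were higher in A+/G+ in 3 of 9 cases (Olig1, Olig2 and Pdgfra, by 4.43, 4.23 and 1.70) and in A-/G+ in 1, Nkx2-2 (-1.58), with summed signals of 13.80 to 14.11 and 11.82 to 12.39. Ependymal markers were higher in A+/G+ in 6 of 8 cases, with summed signals of 13.35 to 14.13 and 9.47 to 11.09. Endothelial and pericyte markers were higher in A+/G+ in 3 of 7 cases, with 13.04 to 13.52 and 10.63 to 12.88, and microglial markers in 1 of 7, with 10.43 to 11.15 and 10.58 to 11.93. All 13 astroglial markers were detected on all arrays, 5 higher in A+/G+ (Atp1b2 by 2.16) and 1 in A-/G+ (Aldh1l1), and all 7 Bergmann glia markers, some of which the study picked from these arrays, were higher in A-/G+ (summed signals of 12.06 to 12.34 in A+/G+ and 14.13 to 14.72 in A-/G+). The part of these other cells in the receptor differences was not tested.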

How the data were processed

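Each of 6 samples, 3 per fraction, was hybridized to an array of its own after amplification of up to 50 ng of RNA and labeling with Cy3. The authors deposited background-corrected spot intensities from Feature Extraction 10.7.3.1, and a log2 table after quantile normalization. Here control spots and outlier spots were left out, intensities were taken to log2 and quantile normalized, spots of a probe were averaged, and limma 3.58.1 in R 4.3.3 compared the fractions over all 55681 probes with Benjamini-Hochberg adjustment. The paper's methods give the limits for a call but used Student's test, which was an alternative here. Slide could not be a block. Whether samples with the same replicate number were isolated together is not known. The correlations of their deviations were 0.20, 0.11 and -0.11, which cannot settle it with 3 arrays per fraction. Samples are labeled biological replicates. The p-values set the difference of the fractions against the spread between these pooled samples, not between single animals.

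Members and gene lists were chosen with earlier results of these data known, and some subunits, probe sequences and a marker are not reported here. Named with values per array are members with a probe at an adjusted p of at most 0.05, or the lowest in a class without one, and others chosen after their values were seen. Partner and marker genes are named at that limit if among the 3 largest differences of their list in either direction, or as defining markers, with others named after their values were seen. Bergmann glia, ependymal, endothelial and pericyte, and microglial markers were not named but given as counts and summed signals. A rule to show whole probes and protein stretches could not be applied without a protein table, so 30 bases are shown. To see how many true differences the limit would miss, arrays of 55660 probes were simulated, 200 of them with a known difference between the fractions. When that log2 difference was 2, 47% of the 200 came within the limit, together with 10 probes that had none. For a difference of 3 the values were 62% and 12. A gene not within the limit may therefore still differ by such an amount. Alternatives were a 75th percentile shift, normexp with an offset of 50, the authors' table, outlier spots kept, filters on dim probes, the methods' t-test, trend and robust variance, the replicate block, averaging the probes of a gene and each array left out.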

Additional observations from a re-analysis of the deposited data

How the results depend on the processing

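Gabbr1 had an adjusted p within the limit under 15 of 16 alternatives, Grin2d under 13 of 15, Gabbr2 under 11 of 15, Gabrg1 and Grik4 under 9 of 16, Gabrb2 under 9 of 15 and Grik1 under 5 of 15, and none of the 7 receptor genes within the limit changed its direction under any of the alternatives that could be run. These counts include the filter to probes detected on at least 3 arrays. Gabbr2 and Grin2d passed that filter through their A+/G+ arrays alone. Their A-/G+ signals were undetected, so the counts for these genes rest on signals near background. The number of receptor genes within the limit was less stable. Against 6 genes higher in A+/G+, a shift by the 75th percentile gave 4, the methods' t-test 3 and normexp 8, while the gene higher in A-/G+ became 0 with the shift. Normexp called 2 receptor probes and put 17 partner genes within the limit, and the t-test 5 partner genes. A filter to probes detected on all 6 arrays, chosen after seeing the data, left 3 called probes, all of Gabbr1, and 3 genes higher in A+/G+. Leaving out an array moved the called probes between 2 and 6 (A+/G+ higher) and 0 and 1 (A-/G+ higher), the genes between 2 and 8 and 0 and 2, and the partner genes between 2 and 21. Counts over all probes were made for the main fit and the replicate block alone. Whether the share over the whole array moved likewise under the other alternatives is therefore not known. Class medians moved as follows. The shift gave 2.67 for GABA-B and -1.63 for glycine receptors, beside -1.02 over all probes and -0.165 over probes detected on all 6 arrays. The glycine median under the shift is the value of Glra3, which was detected on no array. Receptor genes detected on no array had differences from -2.12 (Glra1) to -0.68 (Gabra5) under the shift. Normexp gave 1.88 for GABA-B, and the mean of all probes 2.36. Filters gave -0.53 for glycine (both filters, Glrb alone) and 2.60 for GABA-B (all 6 arrays, Gabbr1 alone). Without an array, the kainate median lay between -0.22 and 0.29 and the NMDA median between 0.25 and 1.18, the highest of both without A-/G+ replicate 3. Whether the replicate numbers pair the samples is not known. With the replicate number as a block, 0 receptor probes were called and 0 genes and 0 partner genes were within the limit. The same held for all 55681 probes (limma, 11671 at an unadjusted p below 0.05). The lowest adjusted p of a receptor gene was 0.063, and 10 of 36 had an unadjusted p below 0.05. Only A+/G+ replicate 1 correlated best with its own number. The number of arrays and the dim A-/G+ arrays limit the precision.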
